A study of Vigna subterranea with 10 samples.

Results

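The 134 brightest probe sets among the 36578 soybean probe sets read in bambara groundnut (Vigna subterranea) leaves are described here. Each of them had a mean log2 expression value of at least 16 over the 9 RNA arrays, and no other property was used to choose them. The 9 arrays came from 3 plants of genotype S19-3 of this African grain legume, kept under a 12 h photoperiod. A fully expanded leaflet of each plant was taken at 27 °C, another after the plants had been moved to 23 °C and another after the next move to 18 °C, which gave 3 arrays per temperature. Temperature therefore cannot be told apart from the order of sampling, plant age or earlier leaflet removal. The labels do not link replicate numbers to plants. The question was what the leaf expresses most, and how those levels differ between the temperatures.

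The RNA was hybridised to the Affymetrix Soybean GeneChip, which reads each transcript with a set of short soybean oligonucleotides, a probe set. A soybean probe can bind RNA of several bambara groundnut genes of one family, or bind poorly where the sequences differ. The order of the values below is therefore an order of signal and not of transcript number. Whole leaflets were extracted, so fewer cells of a type and less RNA per cell cannot be told apart.

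In a mature leaf much of the messenger RNA serves photosynthesis. Light-harvesting proteins hold chlorophyll and pass excitation energy to photosystem II, which splits water, and to photosystem I, which reduces ferredoxin. Rubisco and the other enzymes of the Calvin cycle then fix carbon dioxide, while catalase removes the hydrogen peroxide made during photorespiration and aquaporins let water cross the plasma membrane. Nuclear genes encode the light-harvesting proteins and many photosystem subunits, often in families of near-identical copies.

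Of the 134 probe sets, 18 had a gene name as their array symbol, 53 had a placeholder locus name (LOC), 18 had several symbols and 45 had none. Gma.16829.1.S1_x_at was counted with several symbols, although its symbol was SPCP1 repeated. The study described 28 of them, 1 of which also had a gene name, so 45 members (33.6%) had a usable name. Among the 534 probe sets of the next level band, with a mean of 14 to 16, that share was 24.5%, and among all probe sets it was 6.11%. The described members were picked by the study as changed in these same arrays, so their direction is not independent evidence. Members without a name are given by probe set.

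The labelled tissue was checked against marker genes. Of 32 probe sets named for rubisco activase, light-harvesting proteins and photosystem subunits, 18 were members and 25 had a mean of at least 10, with a median level of 16.2. The 8 nodule probe sets had a median level of 5.64 and the 16 seed storage and inhibitor probe sets one of 7.13. None of either list was a member. Levels ran up to 11.89 in the nodule list and 11.81 in the seed list, where 1 and 3 probe sets averaged 10 or more. The nodule list was chosen by name and included SWEET17, a transporter family protein and an early nodulin-like protein. Whether these are specific to nodules was not tested. No probe set matched the root list.

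The highest value on the arrays belonged to CAB3, a chlorophyll a/b binding protein of the light-harvesting complex. Its log2 values were 18.51, 18.71 and 18.14 at 27 °C, 18.55, 18.03 and 18.26 at 23 °C, and 18.15, 18.23 and 18.16 at 18 °C. CAB3 held the first place at every temperature, and the values of the 3 temperatures overlapped. Its mean at 18 °C differed from that at 27 °C by -0.27 ± 0.15 (SE), which did not pass the limma test (adjusted p = 0.498). A lower CAB3 probe set, GmaAffx.1301.131.A1_x_at, was not a member, with means of 16.02, 16.18 and 15.27 at 27, 23 and 18 °C. It differed by -0.75 ± 0.22 between 18 and 27 °C (adjusted p = 0.138) and by -0.91 ± 0.22 between 18 and 23 °C (adjusted p = 0.106).

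After CAB3, the 9 highest members had means between 17.65 and 18.03. In order, they were Gma.289.1.S1_s_at (18.03), Gma.2360.3.S1_at (18.00), Gma.1316.2.S1_s_at (17.85), Gma.10990.2.S1_x_at (17.76), Gma.16829.1.S1_x_at (17.75), Gma.11869.1.S1_at (17.72), RCA14 (17.69), Gma.10947.1.S1_at (17.67) and GS-2 (17.65). RCA14 encodes rubisco activase, which frees rubisco of bound sugar phosphates, and GS-2 a glutamine synthetase, which assimilates ammonium. From the second place on, each of these members differed from the next by less than the pooled replicate SD of either. That SD is taken across arrays and ignores that the probe sets share each array, so it cannot decide their order. Within arrays, Gma.2360.3.S1_at lay above Gma.1316.2.S1_s_at on all 9, whereas Gma.289.1.S1_s_at and Gma.2360.3.S1_at changed places between arrays.

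The lower end of the list ran up to the threshold without a gap. The 5 members just inside it were the other RCA14 probe set (16.03), Gma.1347.1.S1_at (16.03), Gma.6372.1.S1_at (16.01), Gma.11940.1.S1_at (16.01) and Gma.17740.1.S1_at (16.01). Just outside it were Gma.11531.1.S1_s_at (15.99995), Gma.17682.1.S1_at (15.99873), Gma.11067.1.S1_a_at (15.98), Gma.11144.2.S1_a_at (15.97) and a probe set of the catalase gene CAT4 (15.97).

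The members shared features that the choice by level did not use. Only 43.3% of them had the plain suffix _at, which marks a probe set designed for 1 transcript, against 54.5% of the band of 14 to 16 and 86.1% of all probe sets. Suffix _a_at was carried by 17.9% of members, _s_at by 23.9% and _x_at by 14.9%, against 13.5%, 26% and 5.99% of the band and 2.99%, 8.84% and 2.03% of all probe sets. These suffixes mark probe sets that can read several transcripts of a gene or family, or share probes with other sets. The 134 members carried 113 different name stems, and 37 of them shared a stem with at least 1 other member. Their replicates were close together, with a median SD of 0.139 log2 units, against 0.195 in the band of 14 to 16 and 1.07 over all probe sets.

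The range of a member's 3 temperature means had a median of 0.344 log2 units, against 0.531 in the band of 14 to 16 and 1.08 over all probe sets. This range also grows with the replicate spread, so it does not show that members responded less to temperature. Its median exceeded the median replicate SD in the members (0.344 against 0.139) and the band (0.531 against 0.195). Over all probe sets it was close to that SD (1.08 against 1.07). Among members the range was smallest in Gma.13002.1.S1_at (0.053), Gma.5672.1.A1_at (0.062), ADF1 (0.073), Gma.10990.2.S1_at (0.075) and Gma.16829.1.S1_x_at (0.094). ADF1 is an actin depolymerising factor, and its means were 16.97, 16.99 and 16.92 at 27, 23 and 18 °C. The range was largest in GmaAffx.69688.6.S1_s_at (1.58), the ethylene-forming enzyme (1.56), a photosystem II light-harvesting protein (1.48), Gma.1959.3.S1_a_at (1.32) and photosystem I subunit F (1.30).

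The mean was highest at 27 °C in 59 members (44%), at 23 °C in 48 (35.8%) and at 18 °C in 27 (20.1%). It was lowest at 18 °C in 84 members (62.7%), at 27 °C in 37 (27.6%) and at 23 °C in 13 (9.7%). In the band of 14 to 16, by contrast, 42.9% of probe sets had their highest mean at 18 °C and 21.5% at 27 °C. Over the members, the correlation between a pair of arrays was 0.901 to 0.974 within a temperature and 0.629 to 0.883 between temperatures. These values describe the same 134 probe sets on each pair of arrays.

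**Figure D1:**
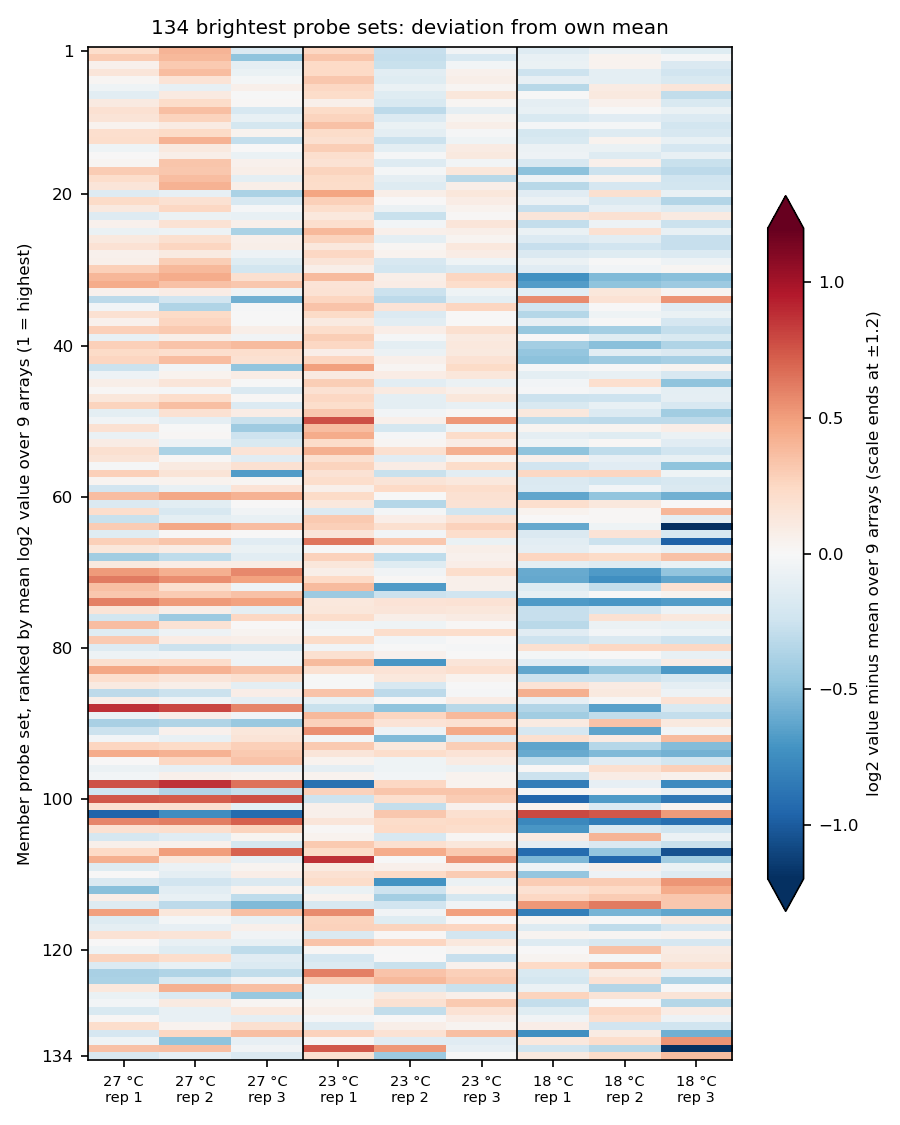
Deviation of each of the 134 members from its own mean over the 9 arrays, in log2 units, with a row per member ranked by mean level and a column per array. The rows that change colour between the temperatures lie mostly below the first 30 ranks. The photosystem members called lower are among the rows that are red at 27 °C and blue at 18 °C. Members outside that group, such as O-methyltransferase 1 and GmaAffx.69688.6.S1_s_at, show the same change.

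Part of this movement was shared by whole arrays. The median of all 36578 probe sets lay between 7.89 and 8.11 on the 9 arrays, and its mean over the 18 °C arrays differed by -0.12 from the 27 °C arrays and by -0.11 from the 23 °C arrays. The median over the members was 16.99, 16.93 and 16.82 at 27 °C, 16.95, 16.75 and 16.83 at 23 °C, and 16.63, 16.72 and 16.69 at 18 °C. The 18 °C arrays thus had the lowest member medians, while the median of the band of 14 to 16 was 0.15 higher at 18 °C than at 27 °C. Differences below are as deposited, so those against 18 °C include this shift, and counts relative to the array medians are given beside them.

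Comparing 18 °C with 27 °C, 29 of the 134 members passed the test (variance-trend limma, Benjamini-Hochberg adjusted p under 0.05 over all 36578 probe sets), 24 lower and 5 higher at 18 °C. This was 21.6% of the members, against 2.13% of all probe sets (0.845% lower and 1.28% higher) and 25.1% of the band of 14 to 16. The direction differed more than the share did. In the band of 14 to 16, 93 probe sets were called higher and 41 lower, and the calls over all probe sets were 469 higher and 309 lower. The members' median difference was -0.18, with 93 of 134 below 0, against 0.11 in the band. Relative to the array medians it was -0.06, with 76 below 0, and the calls were 12 higher and 19 lower. After quantile normalisation the median difference was 0.0006, and the calls were 11 higher and 19 lower.

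The 3 values at 18 °C did not overlap the 3 at 27 °C in 72 members (53.7%), 51 lower and 21 higher. Over all probe sets the share was 18.9%, with 9.94% lower and 8.96% higher, and in the band it was 54.7%. A limma fit that draws all variances towards one common value called none of the members, although 21 had an unadjusted p under 0.05. A t-test over all probe sets called none either, with 58. The paper first kept only probe sets present on every array, and its t-test did report changed genes. The t-test here had no such filter, so it is not a rerun of the paper's. All calls reported here between 18 and 27 °C therefore rest on letting the variance follow the mean level.

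Of the 28 members that the study described, 17 fell and 4 rose, which is 75%, against 51% of all 667 probe sets that it described. Of the other 106 members, 7 fell and 1 rose (7.55%). Among probe sets that the study did not describe, the share called was 15% in the band of 14 to 16 and 1.22% over all levels. Of the 17 members known by an array symbol alone, none passed the test. The share called also depended on level, since 1 of the 22 members with a mean of at least 17.5 was called, against 8 of the 31 between 17 and 17.5.

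**Figure D2:**
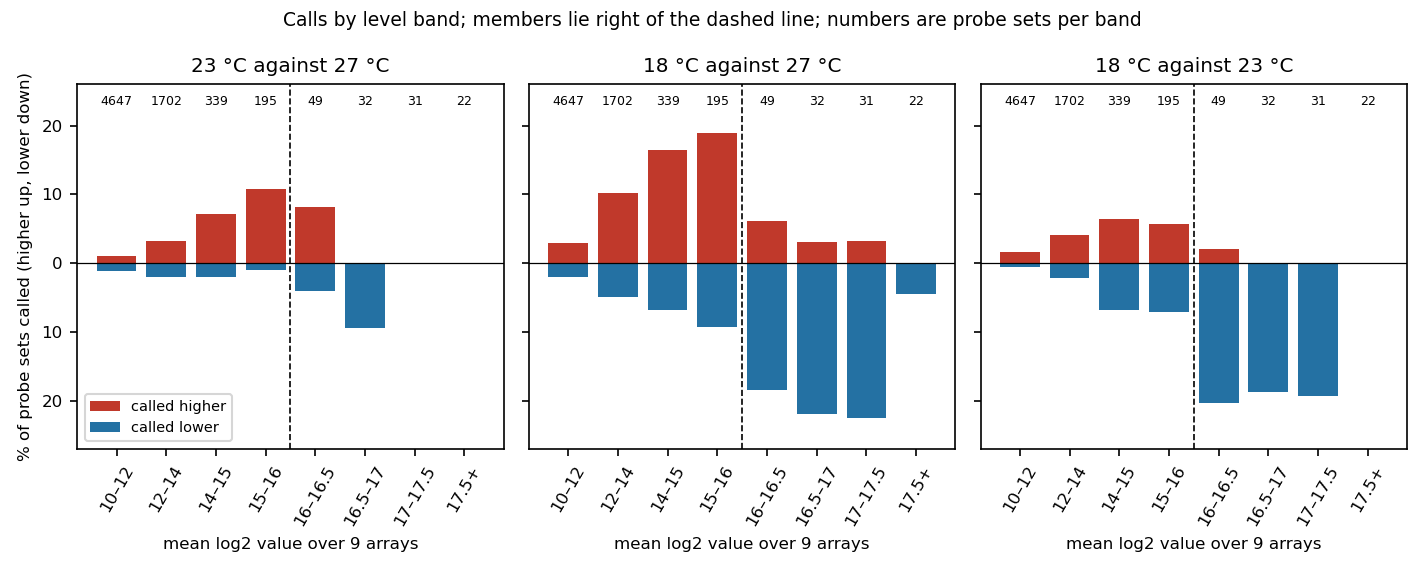
Percentage of probe sets called higher (red, upwards) or lower (blue, downwards) in each comparison, by band of mean log2 value, with the number of probe sets in each band printed above it. In the comparison of 18 °C with 27 °C, higher calls reach 19% in the band of 15 to 16, whereas lower calls exceed higher calls in each band of members.

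Light harvesting and the photosystems made up the largest named group. All 15 members that the study described as photosystem or light-harvesting proteins fell at 18 °C against 27 °C, by 0.58 to 1.48 log2 units, and CAB3 was the only other member of this list. The median difference over the 16 was -0.97, or -0.85 relative to the array medians. Of all 30 probe sets on the array with such a name, 22 fell and none rose. The 22 comprised all 21 that the study described and 1 of the 9 that it did not.

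In the antenna of photosystem II, a probe set described as a light-harvesting complex protein (Gma.1166.3.S1_x_at) had values of 16.85, 16.88 and 16.98 at 27 °C, 16.41, 16.48 and 16.50 at 23 °C, and 15.49, 15.42 and 15.36 at 18 °C. The 3 temperatures did not overlap at any point, and each step down was lower than the last. It fell by 1.48 ± 0.08 between 27 and 18 °C (adjusted p = 1.83e-05) and moved from rank 67 to rank 238 of all probe sets. The other probe set of that description, Gma.2362.1.S1_at, had 16.66, 16.30 and 16.53 at 27 °C, 16.74, 16.13 and 16.66 at 23 °C, and 15.34, 15.61 and 15.54 at 18 °C. There the values at 27 and 23 °C overlapped and only the 18 °C arrays lay below (-0.996 ± 0.16, adjusted p = 0.00775).

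Subunit B1 of light-harvesting complex II, the main antenna, was read by a pair of probe sets whose means fell from 17.27 to 16.29 and from 17.28 to 16.06. The differences of -0.97 ± 0.09 and -1.21 ± 0.09 had adjusted p-values of 0.000213 and 6.57e-05. Light-harvesting gene 2.1 of photosystem II (-0.76 ± 0.09) and the minor antenna protein subunit 6 (-0.71 ± 0.08 and -0.61 ± 0.09 in its probe sets) fell by less. In each of these the 18 °C values lay below all values at 23 and 27 °C.

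Photosystem II subunit O-2, a protein of the oxygen-evolving complex, had values of 17.23, 17.15 and 17.31 at 27 °C, 16.80, 16.68 and 16.94 at 23 °C, and 16.12, 16.04 and 16.25 at 18 °C. Its values at the 3 temperatures were apart, and it fell by 1.09 ± 0.09 between 27 and 18 °C (adjusted p = 0.000176).

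On the side of photosystem I, light-harvesting gene 3 fell by 1.22 ± 0.07 (adjusted p = 2.11e-05) in one probe set, from 17.308, 17.209 and 17.181 at 27 °C to 16.020, 16.005 and 16.027 at 18 °C. In its other probe set, with a mean of 17.35, it fell by 0.90 ± 0.08. Subunit F, the docking site of plastocyanin, had values of 16.47, 16.73 and 16.93 at 27 °C, 16.45, 16.66 and 16.54 at 23 °C, and 15.30, 15.76 and 15.17 at 18 °C. The first pair of temperatures overlapped, and the 18 °C arrays were the low ones (-1.30 ± 0.16, adjusted p = 0.00171). Subunit H2 fell by 1.01 ± 0.08 and 0.96 ± 0.08 in its probe sets, and subunit l by 0.93 ± 0.10 and 0.58 ± 0.10.

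**Figure D3:**
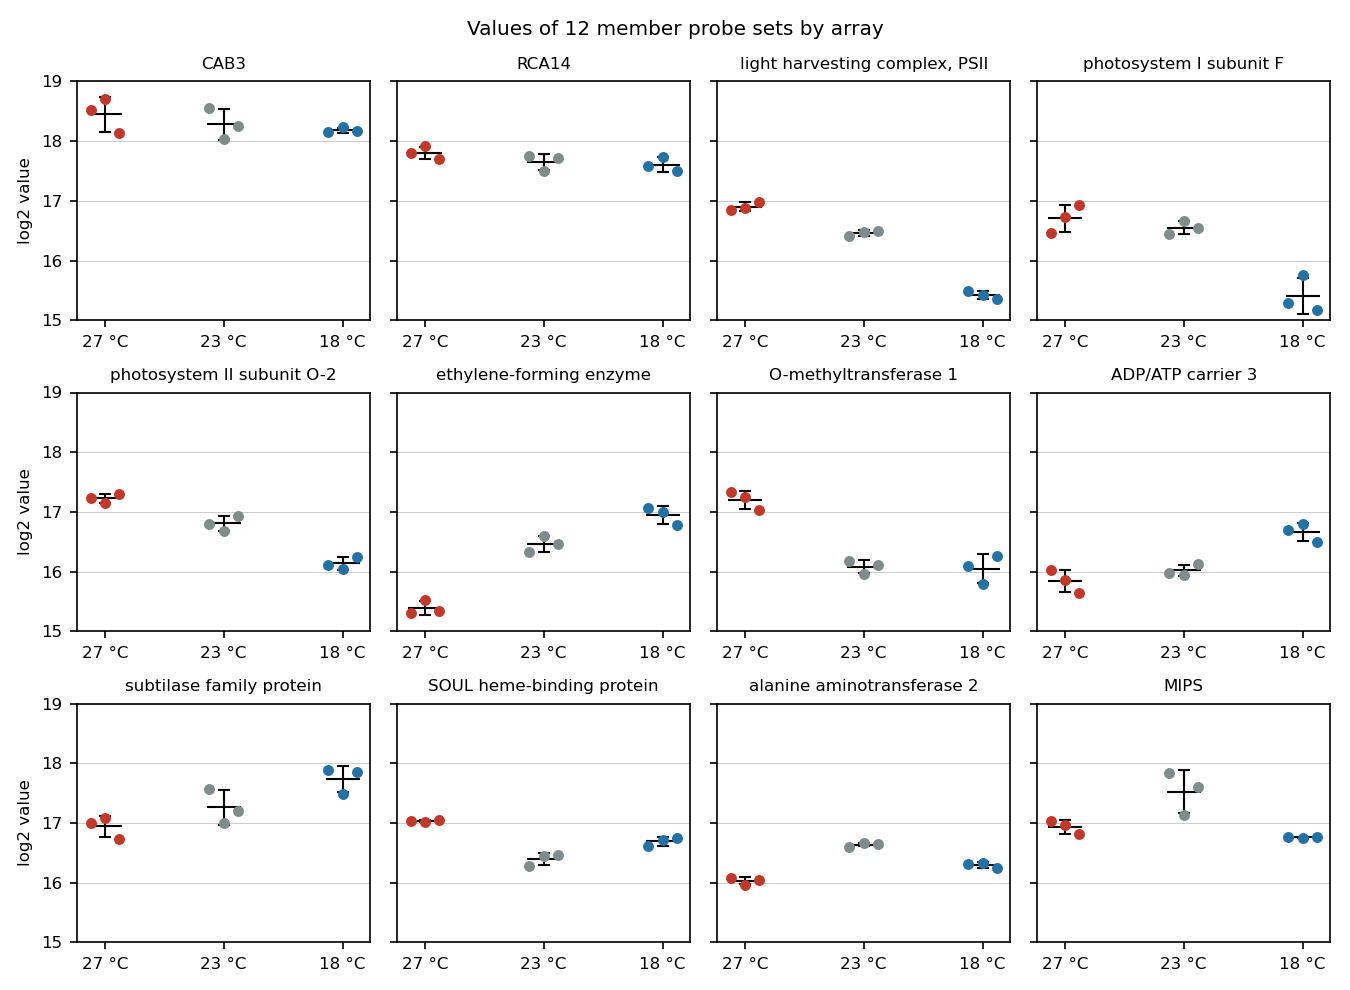
Log2 values of 12 members on each array (points), with the mean and SD of the 3 arrays per temperature (black). The photosystem panels drop at 18 °C while CAB3 and RCA14 overlap between temperatures, and the ethylene-forming enzyme lies near 15.4 at 27 °C and near 16.9 at 18 °C.

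Among members of other roles that fell at 18 °C, O-methyltransferase 1 had values of 17.33, 17.25 and 17.04 at 27 °C, 16.18, 15.96 and 16.11 at 23 °C, and 16.10, 15.79 and 16.26 at 18 °C. It was lower at both cooler temperatures, which overlapped each other, and its difference between 18 and 27 °C was -1.15 ± 0.13 (adjusted p = 0.00101). Thioredoxin F2, which activates Calvin cycle enzymes by reducing them, fell by a smaller amount (-0.41 ± 0.08, adjusted p = 0.0177), and this call was lost relative to the array medians (adjusted p = 0.101).

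The largest fall of any member was in GmaAffx.69688.6.S1_s_at, whose symbol is the placeholder LOC100306510. It had 17.05, 17.03 and 17.08 at 27 °C, 16.06, 16.51 and 16.61 at 23 °C, and 15.35, 15.62 and 15.45 at 18 °C, with no overlap between temperatures. The difference between 18 and 27 °C was -1.58 ± 0.13 (adjusted p = 0.000176). The other 6 unnamed members that fell were Gma.1959.3.S1_a_at (-1.32 ± 0.27), Gma.9944.1.S1_at (-1.01 ± 0.21), Gma.5539.1.S1_a_at (-0.76 ± 0.10), Gma.5672.3.S1_a_at (-0.46 ± 0.10) and both probe sets of Gma.15376.1 (-0.59 ± 0.13 and -0.43 ± 0.07). The calls of Gma.9944.1.S1_at, Gma.5672.3.S1_a_at and the Gma.15376.1 pair were lost relative to the array medians, with adjusted p-values of 0.0595, 0.0816, 0.0653 and 0.0919. That of Gma.1959.3.S1_a_at held in 4 of the 9 fits that left out 1 array.

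Of the 5 members that rose at 18 °C, the ethylene-forming enzyme, which catalyses the last step of ethylene synthesis, moved the most. Its values were 15.31, 15.52 and 15.34 at 27 °C, 16.33, 16.59 and 16.46 at 23 °C, and 17.06, 17.01 and 16.78 at 18 °C. No temperature overlapped another, and it rose by 1.56 ± 0.11 between 27 and 18 °C (adjusted p = 5.95e-05). By level it moved from rank 234 of all probe sets at 27 °C to rank 98 at 23 °C and rank 49 at 18 °C.

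ADP/ATP carrier 3 exchanges these nucleotides across the inner mitochondrial membrane. It had 16.02, 15.86 and 15.64 at 27 °C, 15.98, 15.95 and 16.13 at 23 °C, and 16.70, 16.80 and 16.49 at 18 °C. The 18 °C arrays were high and the others overlapped, with a difference of 0.82 ± 0.12 between 18 and 27 °C (adjusted p = 0.00467). The QCR9-like protein, a subunit of the mitochondrial ubiquinol-cytochrome c reductase, rose by 0.44 ± 0.07 (adjusted p = 0.0101).

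A subtilase family protein, a serine protease, had 17.005, 17.086 and 16.739 at 27 °C, 17.575, 17.005 and 17.201 at 23 °C, and 17.883, 17.492 and 17.850 at 18 °C. The 18 °C values lay above all those at 27 °C, and the 23 °C values overlapped both. It rose by 0.80 ± 0.15 (adjusted p = 0.0222), from rank 63 at 27 °C to rank 4 at 18 °C, but the call held in 4 of the 9 fits that left out 1 array. The remaining riser, GmaAffx.5686.1.S1_at, has no name and rose by 0.59 ± 0.09 (adjusted p = 0.00577).

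**Figure D4:**
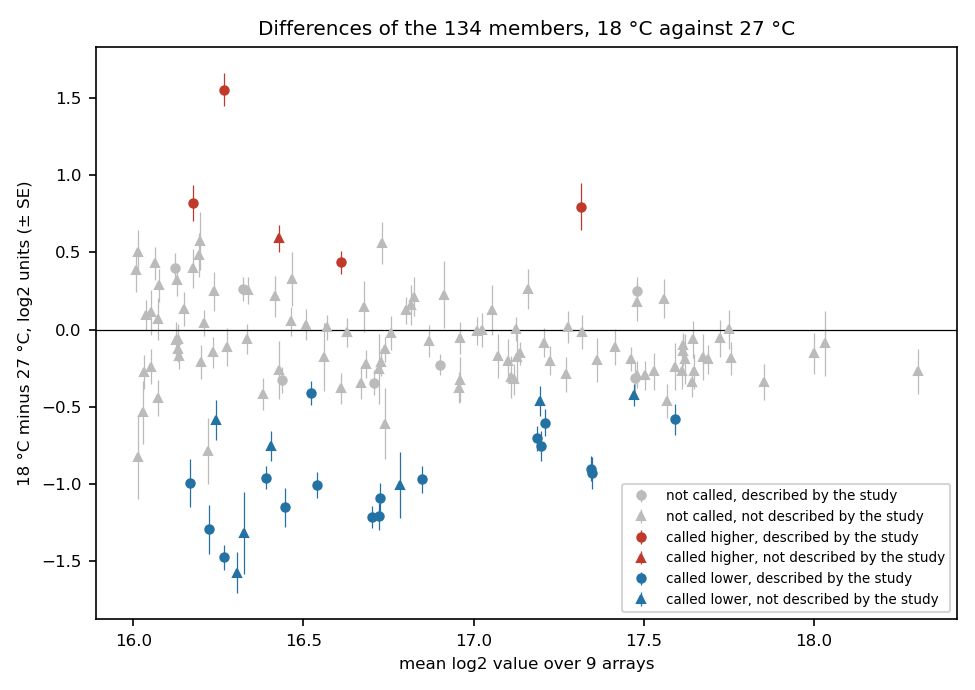
Difference between 18 °C and 27 °C (log2 units, bars ± SE) of each of the 134 members against its mean log2 value over the 9 arrays, coloured by call and shaped by whether the study described it. The differences narrow from a range of -1.58 to 1.56 below 16.5 to a range of -0.58 to 0.20 above 17.5.

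At 23 °C against 27 °C, 9 members passed the test, 4 higher and 5 lower. This was 6.72% of the members, against 0.776% of all probe sets (0.435% higher and 0.342% lower) and 10.1% of the band of 14 to 16, where 45 were called higher and 9 lower. The members' median difference was 0.01, and the values did not overlap in 42 of them (31.3%), 25 higher and 17 lower. Over all probe sets that share was 14.8% (7.3% higher and 7.52% lower), and in the band 38.4%. Relative to the array medians 4 members were called higher and 3 lower, and after quantile normalisation 7 and 3.

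Of the members lower at 23 °C, O-methyltransferase 1 differed by -1.12 ± 0.13 (adjusted p = 0.00325). The SOUL heme-binding family protein had 17.04, 17.02 and 17.06 at 27 °C, 16.27, 16.45 and 16.47 at 23 °C, and 16.61, 16.71 and 16.75 at 18 °C. It was lowest at 23 °C without overlap with either neighbour, and the difference to 27 °C was -0.64 ± 0.08 (adjusted p = 0.00588). The other 3 were light-harvesting members: one probe set of subunit B1 (-0.45 ± 0.09), Gma.1166.3.S1_x_at (-0.44 ± 0.08) and one probe set of photosystem I light-harvesting gene 3 (-0.38 ± 0.07). Their adjusted p-values of 0.0406, 0.0349 and 0.041 became 0.1, 0.0613 and 0.0887 relative to the array medians, and the calls held in 1, 1 and 0 of the 9 fits that left out 1 array.

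Of the members higher at 23 °C, the ethylene-forming enzyme rose by 1.07 ± 0.11 (adjusted p = 0.00177). Alanine-2-oxoglutarate aminotransferase 2 (ALAAT2), which interconverts alanine and pyruvate, had 16.08, 15.97 and 16.05 at 27 °C, 16.60, 16.66 and 16.65 at 23 °C, and 16.31, 16.34 and 16.24 at 18 °C. Its values were highest at 23 °C with no overlap between temperatures, and it rose by 0.60 ± 0.08 from 27 °C (adjusted p = 0.00598). The difference between 18 and 27 °C was 0.26 ± 0.08 (adjusted p = 0.133). Relative to the array medians ALAAT2 was called higher at 18 °C than at 27 °C (0.38, adjusted p = 0.0435). Gma.16015.1.S1_s_at (0.76 ± 0.11, adjusted p = 0.0101) and GmaAffx.5686.1.S1_at (0.61 ± 0.09, adjusted p = 0.011) also rose.

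Between 23 and 18 °C, 23 members passed the test, 22 of them lower at 18 °C. This was 17.2% of the members, against 0.943% of all probe sets (0.394% lower and 0.55% higher) and 13.1% of the band of 14 to 16, where 33 were called higher and 37 lower. The median difference was -0.20, with 98 of the 134 members below 0. Relative to the array medians it was -0.09, with 82 below 0, and after quantile normalisation it was -0.02. The values did not overlap in 74 members (55.2%), 60 lower and 14 higher. Over all probe sets that share was 16% (8.26% lower and 7.78% higher), and in the band 51.9%. Relative to the array medians 4 members were called higher and 15 lower, and after quantile normalisation 10 and 18. These 3 comparisons share arrays pairwise, so their counts are not independent of each other.

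Photosystem and light-harvesting members made up 14 of the 22 falls, with differences between -0.51 and -1.14. Photosystem I subunit F (-1.14 ± 0.16, adjusted p = 0.00654) and Gma.1166.3.S1_x_at (-1.04 ± 0.08, adjusted p = 0.000429) were among the largest. The call of light-harvesting gene 2.1 held in 1 of the 9 fits that left out 1 array. That of subunit 6 in Gma.11123.1.S1_x_at held in 5, and that of Gma.2362.1.S1_at in 6. The other photosystem and light-harvesting calls held in 8 or 9. Relative to the array medians the calls of gene 2.1 and Gma.11123.1.S1_x_at were lost (adjusted p = 0.129 and 0.0679). Of the 24 members that fell at 18 °C against 27 °C, 16 also fell against 23 °C and 4 fell at 23 °C against 27 °C. The first of these counts shares the 18 °C arrays and the second the 27 °C arrays.

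A HAD superfamily hydrolase, an enzyme of a broad family of phosphatases and related hydrolases, had 16.37, 16.51 and 16.40 at 27 °C, 16.82, 16.69 and 16.83 at 23 °C, and 16.02, 16.14 and 16.15 at 18 °C. It was highest at 23 °C and lowest at 18 °C without overlap, and fell by 0.68 ± 0.08 between them (adjusted p = 0.00372). On the deposited values ADP/ATP carrier 3 was the only member called higher (0.64 ± 0.12, adjusted p = 0.0302). This call held in 3 of the 9 fits that left out 1 array and was lost with the replicate number as a block (adjusted p = 0.0509). Relative to the array medians the ethylene-forming enzyme (0.60, adjusted p = 0.0389), ADP-ribosylation factor A1F (0.50, 0.0476) and the SOUL protein (0.41, 0.0416) were also called higher at 18 °C than at 23 °C. Quantile normalisation also gave these calls and added the subtilase, the L16p/L10e ribosomal protein and the QCR9-like protein (adjusted p = 0.0294, 0.0332 and 0.0178).

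MIPS, myo-inositol-1-phosphate synthase, makes the precursor of inositol and its methylated and phosphorylated forms. One of its probe sets had 17.02, 16.96 and 16.81 at 27 °C, 17.84, 17.13 and 17.59 at 23 °C, and 16.76, 16.75 and 16.76 at 18 °C. The 23 °C values were the highest and the most scattered, and the difference of -0.76 ± 0.15 between 18 and 23 °C passed the test (adjusted p = 0.0365). It did so in 1 of the 9 fits that left out 1 array and not relative to the array medians (adjusted p = 0.0932). The other MIPS probe set and MIPS4 also had their highest means at 23 °C, at 17.24 and 17.41, but differed from 18 °C by -0.32 ± 0.11 and -0.24 ± 0.13 (adjusted p = 0.298 and 0.566). After quantile normalisation the first MIPS probe set and MIPS4 were called higher at 23 °C than at 27 °C, by 0.62 and 0.54 (adjusted p = 0.0176 and 0.028), and MIPS4 also at 18 °C than at 27 °C, by 0.49 (adjusted p = 0.0247).

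One catalase 2 probe set had 16.93, 16.94 and 16.92 at 27 °C, 17.11, 17.06 and 17.03 at 23 °C, and 16.73, 16.68 and 16.71 at 18 °C. The temperatures did not overlap, and the fall of 0.36 ± 0.07 between 23 and 18 °C had an adjusted p of 0.0345, which held in none of the 9 fits that left out 1 array and not relative to the array medians (adjusted p = 0.238). CAT1 lay between 16.94 and 17.27 on all arrays and differed by -0.24 ± 0.07 between 18 and 23 °C (adjusted p = 0.2). The unnamed members that fell were GmaAffx.69688.6.S1_s_at, Gma.5491.1.S1_at, Gma.5539.1.S1_a_at, Gma.4423.2.S1_a_at and Gma.16539.1.S1_at. Their differences were -0.92, -1.11, -0.74, -0.49 and -0.43. Relative to the array medians the calls of Gma.5491.1.S1_at, Gma.4423.2.S1_a_at and Gma.16539.1.S1_at were lost (adjusted p = 0.079, 0.109 and 0.224), and they held in 1, 2 and 0 of the 9 fits that left out 1 array.

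Other named members did not pass the test in these comparisons. In the Calvin cycle, RCA14 had 17.80, 17.91 and 17.70 at 27 °C, 17.75, 17.51 and 17.71 at 23 °C, and 17.58, 17.74 and 17.51 at 18 °C. Its values overlapped between all temperatures, and the difference between 18 and 27 °C was -0.19 ± 0.09 (adjusted p = 0.42). Subunit A2 of chloroplast glyceraldehyde 3-phosphate dehydrogenase had 17.59, 17.67 and 17.54 at 27 °C and 17.32, 17.35 and 17.20 at 18 °C. These did not overlap, but the difference of -0.31 ± 0.10 did not pass the test (adjusted p = 0.153). Of all 10 probe sets of the Calvin cycle list, 1 rose and none fell at 18 °C against 27 °C.

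Aquaporins of the plasma membrane were among the brightest probe sets. PIP2-13 had 17.40, 17.46 and 17.17 at 27 °C, 18.03, 17.63 and 17.70 at 23 °C, and 17.42, 17.75 and 17.47 at 18 °C in one probe set. The 23 °C values lay above all those at 27 °C and the 18 °C values overlapped both, and none of the differences passed the test (23 °C against 27 °C, 0.44 ± 0.12, adjusted p = 0.206). After quantile normalisation this probe set was called higher at 23 °C and at 18 °C than at 27 °C, by 0.49 and 0.40 (adjusted p = 0.0152 and 0.0218). PIP1-7 had means of 17.60, 17.66 and 17.33 at 27, 23 and 18 °C and differed by -0.27 ± 0.12 between 18 and 27 °C (adjusted p = 0.381).

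Other named members that did not pass the test at 18 °C against 27 °C were PETC, the Rieske protein of the cytochrome b6f complex (-0.02 ± 0.09), the calmodulin SCAM-2 (0.11 ± 0.14), GS-2 (-0.27 ± 0.11), a ribosomal protein of the L16p/L10e family (0.25 ± 0.09), ADP-ribosylation factor A1F (0.40 ± 0.10), SPCP1 (-0.33 ± 0.14), CGS2 (-0.38 ± 0.10) and ARF (-0.44 ± 0.12). The SPCP1 value is that of GmaAffx.89113.1.S1_x_at. Gma.16829.1.S1_x_at, whose symbol is SPCP1 repeated, differed by 0.003 ± 0.13 (adjusted p = 0.996). The cytochrome b6f complex carries electrons between the photosystems. The values of PETC lay between 16.48 and 16.84 on all 9 arrays, while the photosystem subunits on either side of it in the electron chain fell as given above. Those subunits were picked by the study as changed and PETC was not, so this contrast is not independent evidence. Among the members listed here, ADP-ribosylation factor A1F was called higher at 18 °C relative to the array medians (0.52, adjusted p = 0.026) and after quantile normalisation (0.50, adjusted p = 0.0209). The L16p/L10e protein was so after quantile normalisation alone (0.42, adjusted p = 0.0107). CGS2 and ARF were called lower when the test was limited to means of 10 or more (adjusted p = 0.0357 and 0.0362). The L16p/L10e protein was at place 8 of all probe sets at 18 °C. No member matched the keyword lists for ubiquitin, proteasome and protein turnover, chaperones, lipid transfer and cell wall, cold and dehydration, or defence and storage. Only the 45 members with a usable name could match. A name without the keywords, such as that of the subtilase, did not match either.

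Probe sets that share a name stem did not always move together. Of the 16 stems with several members, 4 had all of them called the same way between 18 and 27 °C and 4 had calls that differed. A shared stem need not mean a shared gene. GmaAffx.1301, among the stems that differed, holds photosystem I subunit F and, outside the members, a CAB3 probe set. The Gma.10820 stem showed the widest gap among stems of the Gma series at 23 °C against 27 °C. Its O-methyltransferase 1 probe set fell by 1.12 ± 0.13, whereas Gma.10820.2.S1_at had means of 17.62, 17.76 and 17.56 and differed by 0.14 ± 0.12 (adjusted p = 0.812). In the Gma.1316 stem, subunit l of photosystem I fell between 27 and 18 °C in both described probe sets, and Gma.1316.2.S1_s_at differed by -0.34 ± 0.12 (adjusted p = 0.218). The array annotation gives Gma.10820.2.S1_at the symbol LOC100777528 and the O-methyltransferase 1 probe set LOC100812768 and LOC100800801, which are different soybean loci. Whether such pairs read different bambara groundnut genes or the same gene with different binding was not tested.

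Which probe sets were the brightest differed in part between temperatures. A temperature mean of at least 16 was reached by 139 probe sets at 27 °C, 149 at 23 °C and 134 at 18 °C. In all 176 reached it at some temperature and 103 at every temperature. These 103 were all members, as the choice by the mean over the same arrays requires, and 88 members were at or above 16 on every array. The members numbered 123 at 27 °C, 128 at 23 °C and 115 at 18 °C. The 10 highest probe sets at each temperature shared 5 and drew on 17 in all. Subunit l of photosystem I stood at place 5 at 27 °C and outside the first 10 at the cooler temperatures, while the subtilase stood at place 4 at 18 °C.

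A further 42 probe sets reached 16 at some temperature without being members. Among those with a name, the photosystem I gene PSAD did so at 27 and 23 °C (means 16.273, 16.002 and 14.989) and fell by 1.28 ± 0.26 between 27 and 18 °C (adjusted p = 0.028). Enolase, an enzyme of glycolysis, did so at 18 °C alone (14.73, 14.59 and 16.52), a rise of 1.79 ± 0.17 from 27 °C (adjusted p = 0.000317). CHLH, a magnesium chelatase subunit of chlorophyll synthesis, did so at 23 and 18 °C (14.94, 16.36 and 16.17), as did a further probe set of the ethylene-forming enzyme (14.87, 16.06 and 16.58). Both rose at 18 °C against 27 °C, by 1.23 ± 0.13 and 1.71 ± 0.16 (adjusted p = 0.000742 and 0.000391). These were named after their values were seen.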

How the data were processed

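Total RNA of 9 leaflets was labelled and hybridised by the authors to the Soybean GeneChip, and probe pairs that bound the species' own genomic DNA weakly had been masked. The deposited values are log2 expression values made by the authors with RMA (version not given in the sources used here), which corrects background, normalises arrays and summarises probes. Of these, 1312 lay above 16 and 1434 below 0, beyond the log2 range of a 16-bit scan, so a step besides RMA is unknown. The threshold of 16 is therefore one of the deposited scale, and differences may not equal log2 fold changes. The methods chose one of several masking thresholds as best, but do not say which one made the deposited table. The column of the genomic DNA array was empty and was not used.

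Members were found by a mean of at least 16. Differences were tested in R 4.3.3 with limma 3.58.1 (eBayes with a variance trend and robust settings, all 9 arrays in 1 model, 6 residual degrees of freedom, two-sided), with Benjamini-Hochberg adjustment over all 36578 probe sets and a threshold of 0.05. With 3 arrays per temperature, the number of arrays limits the precision. The spread behind the p-values is that of leaflets from 3 plants, and the plant could not be used as a block because replicate numbers are not tied to plants. The members, gene lists and the choice of the variance trend were made with earlier results of these data known.

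Text names the 10 highest members, up to 10 called members per direction and comparison with named ones first, all named members by list, the 5 with the smallest and largest range, and 5 on either side of the threshold. Names came from the array annotation (1 symbol) or the study's descriptions. Gene lists were keyword searches of both. Alternatives were another variance prior, the arrays compared alone, the replicate block, centring on array medians, quantile normalisation and a filter on the mean. Others were a t-test without the presence filter of the methods, each array left out, and other membership thresholds.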

Additional observations from a re-analysis of the deposited data

How the results depend on the processing

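The counts of members called at 18 °C against 27 °C, 23 °C against 27 °C and 18 °C against 23 °C were 29, 9 and 23. With a constant variance prior they were 0, 0 and 0 (21, 7 and 20 had an unadjusted p under 0.05). With a t-test over all probe sets, without the paper's presence filter, they were 0, 0 and 1 (58, 28 and 54 unadjusted). For 18 °C against 23 °C the count was 15 from the 6 arrays compared alone and 36 with a filter on a mean of at least 10. Membership from a mean of 15 gave 84, 32 and 48 calls among 329 probe sets, with 42, 25 and 12 of them higher, and from a mean of 17 gave 9, 0 and 6 among 53. Leaving out 1 array gave 20 to 31, 4 to 7 and 12 to 19. The lowest counts at 23 °C against 27 °C came without 27 °C replicate 2 (4), 27 °C replicate 3 (5) and 23 °C replicate 3 (5), and at 18 °C against 23 °C without 23 °C replicate 3 (12), 18 °C replicate 1 (13) and 23 °C replicate 1 (14). The cause was not tested. Deviations of same-numbered arrays from their group means correlated between -0.0128 and 0.0128 over all probe sets. Over the members they correlated at 0.0905 to 0.101, -0.134 to 0.381 and 0.312 to 0.383 in these comparisons, and in the third alone every array correlated best with its own number. This is a hint from the data, since the labels do not tie the numbers to plants. Blocking on replicate number gave counts of 31, 9 and 22, of which 28, 7 and 20 were among the calls above. In the third comparison the block lost ADP/ATP carrier 3 (adjusted p = 0.0509), Gma.16539.1.S1_at (0.0572) and catalase 2 (0.0591). No called difference changed direction under any alternative run. The number of members was 131 to 137 with 1 array left out and 141 with the median in place of the mean. Adding probe sets of other organisms was not run, because the table used holds soybean probe sets alone.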
